A study of Mus musculus with 4 samples.

Results

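Type 2 cytokines, Il10 and Tslp were examined as 7 genes, Il4, Il5, Il13, Il9, Il3, Il10 and Tslp, in cells washed from the airspaces of mouse lungs. They were chosen by name: every non-control probe whose accession maps to one of these symbols in RefSeq was taken, which gave 7 probes, 1 per gene, of 39429 probes on the array. BALF cells (cells of the bronchoalveolar lavage fluid) of bleomycin-treated wild-type (WT) and S1pr2-/- mice were each measured on 2 one-color arrays. Per the labels, bleomycin was given into the peritoneum at 0.035 U/g, 2 times a week, and RNA was prepared on day 22; the label names the tissue alveolar macrophages, while its extraction protocol names BALF cells, with no sort. Per the methods, the S1pr2-null mice, of mixed strain origin and crossed back to C57BL/6J, lack the receptor in all cells, and WT littermates of 8 to 10 weeks served as controls. All 4 arrays came from bleomycin-treated mice, so that none of the values below compares bleomycin with no treatment.

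IL-4 and IL-13 are cytokines of type 2 helper T cells, group 2 innate lymphoid cells, basophils, mast cells and eosinophils. Both bind receptors that contain IL-4Rα and act through STAT6. In macrophages they induce the alternatively activated state associated with lung fibrosis. IL-5 promotes the maturation and survival of eosinophils, IL-9 acts on mast cells, and IL-3 is a growth factor of myeloid cells and basophils. TSLP is an epithelial cytokine that acts upstream of type 2 responses, and IL-10 is an anti-inflammatory cytokine made by many leukocytes. The genes Il4, Il13 and Il5 lie close together, with Rad50 between Il13 and Il5.

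The deleted gene itself was read first, as a check of the labels. Its probe gave 91.5% and 89.6% of the array's 75th percentile in WT, against 635% and 583% in S1pr2-/-, which is 2.75 higher on the log2 scale (SE 0.072). The limma fit put the adjusted p at 0.335. The signal was thus higher where the label names a deletion. Whether the probe lies in the deleted part of the gene is not given in the sources used here, so every direction below is that of the arrays labelled S1pr2-/- against the arrays labelled WT. Of 11 alveolar macrophage markers, all 11 were measured, and among them Fabp4, Krt79, Cidec and Car4 differed most, with log2 differences of 0.58, -0.45, 0.42 and -0.28. Their summed signal was 656 and 706 times the array's 75th percentile on the WT arrays and 641 and 703 times on those labelled S1pr2-/-.

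Each value is the processed signal of a probe (the spot intensity after background correction by the scanner software) expressed relative to the 75th percentile of the array (taken over its non-control spots), and is given as a percentage of it. The 75th percentiles were between 2489 and 2817 intensity units. A probe was called well above background by the software's own flag, and 67.5% to 72.1% of probes were so on an array. Of the 7 genes, 5 could be tested. Il4, Il5 and Il3, 3 of the 7, were well above background on all 4 arrays, Il13 and Il10 on 3 arrays each, and Il9 and Tslp, 2 of the 7, on none. Levels of different probes are not compared, because probes differ in how strongly they bind.

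Il4 showed the clearest separation between genotypes. Its probe, printed 10 times on each array, gave 37.4% and 90.6% of the 75th percentile on the WT arrays and 4.65% and 5.21% on those labelled S1pr2-/-. Both WT arrays were above both other arrays, and the lower WT value was 7.18 times the higher S1pr2-/- value. The mean difference was -3.56 on the log2 scale (standard error 0.505, 95% interval -5.10 to -2.03, n = 2 arrays per genotype, unadjusted p of 0.00435, adjusted p = 0.508 in limma), or 11.8-fold lower. The call did not pass the adjusted threshold.

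The repeated spots show how much of the Il4 spread lies within an array. On WT replicate 1, the 10 spots ranged from 919 to 985 intensity units, and on WT replicate 2 from 2138 to 2353. On the arrays labelled S1pr2-/-, they ranged from 119 to 155 on replicate 1 and from 124 to 143 on replicate 2. The coefficient of variation among spots was at most 9.51%, on S1pr2-/- replicate 1. The spots of the 2 WT arrays therefore did not overlap, and WT replicate 2 gave 2.42 times the Il4 signal of WT replicate 1, whereas the arrays labelled S1pr2-/- were 1.12-fold apart with overlapping spots. Because the WT arrays differed so much, leaving out WT replicate 1 gave an 18.4-fold and leaving out WT replicate 2 a 7.60-fold difference.

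For Il13 as well, both WT arrays were above both arrays labelled S1pr2-/-. Its single spot gave 4.22% and 14.6% of the 75th percentile on the WT arrays and 0.283% and 0.661% on those labelled S1pr2-/-, where it was well above background on replicate 2 and not on replicate 1. The lower WT value was 6.38 times the higher S1pr2-/- value, and WT replicate 2 was again the higher WT array, by 3.46-fold. For the test, values under 0.01 of the 75th percentile were set to 0.01, which put both S1pr2-/- values at this floor; the methods list a minimum of 0.01 before the scaling, where it would not reach these signals. The log2 difference was then -2.97 (standard error 0.701, 95% interval -5.10 to -0.84, unadjusted p of 0.0201, adjusted p = 0.508 in limma), or 7.85-fold. With each S1pr2-/- array instead at the higher of its own Il13 signal and its lowest signal well above background, the difference was 11.9-fold. The size thus depends on how signal near background is treated. It was 18.2-fold with no floor, 3.78-fold with normexp background correction and 3.07-fold with the percentile over detected probes. Without WT replicate 1 it was 14.6-fold and without WT replicate 2 4.22-fold, both with the floor.

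Il5 differed less. Its probe gave 4.69% and 7.19% of the 75th percentile on the WT arrays and 3.39% and 3.90% on those labelled S1pr2-/-. The groups did not overlap, but the lower WT value was only 1.20 times the higher S1pr2-/- value. The log2 difference was -0.68 (standard error 0.259, 95% interval -1.46 to 0.11, unadjusted p of 0.0730, adjusted p = 0.541 in limma), or 1.60-fold lower, which is about the 1.53-fold gap between the WT arrays. Whether the Il4 and Il5 differences themselves differ was not tested.

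Il3 gave 1.56% and 1.19% of the 75th percentile on the WT arrays and 1.19% and 1.67% on those labelled S1pr2-/-. The genotypes overlapped, with the highest and the lowest value both on arrays labelled S1pr2-/-. The log2 difference was 0.05 (standard error 0.249, 95% interval -0.71 to 0.80, adjusted p = 0.966 in limma), and its sign turned without WT replicate 2 (-0.15) and without S1pr2-/- replicate 2 (-0.20).

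**Figure D1:**
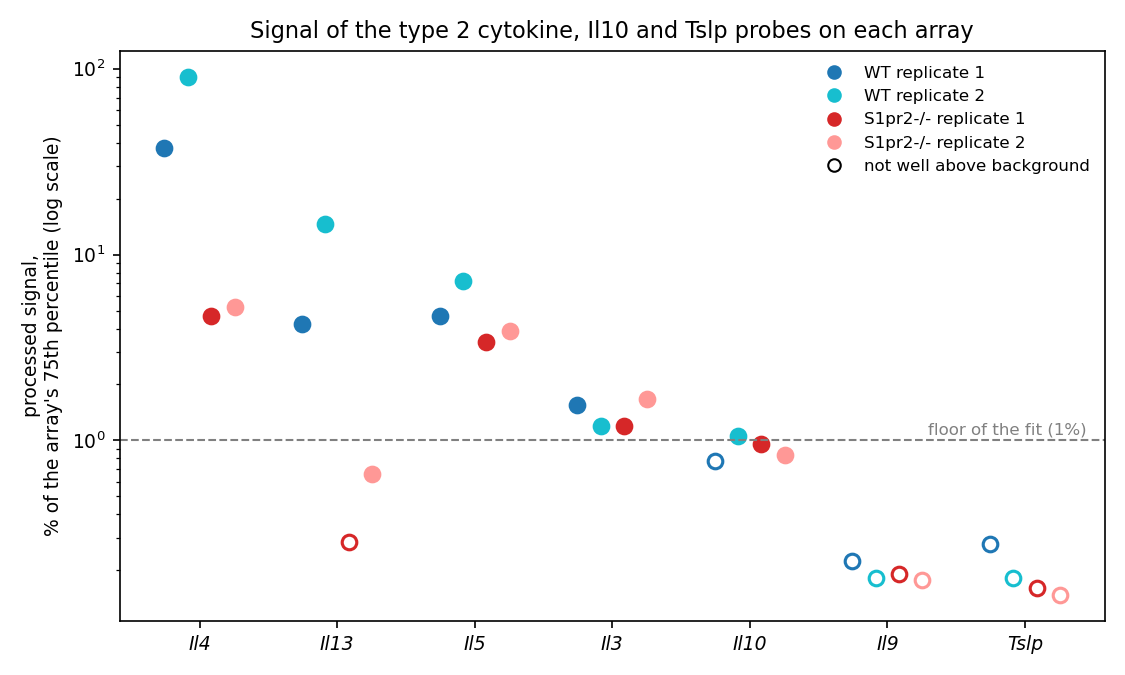
Processed signal of the probes for Il4, Il13, Il5, Il3, Il10, Il9 and Tslp on each of the 4 arrays, as a percentage of the array's 75th percentile on a log axis. Each point is 1 array, open points were not well above background, and the dashed line is the floor used in the test; the WT points lie above the S1pr2-/- points for Il4, Il13 and Il5, overlap with them for Il3 and Il10, and all points of Il9 and Tslp are open.

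Il10 was at the edge of detection in both genotypes. Its probe, also printed 10 times, gave 0.775% and 1.05% of the 75th percentile on the WT arrays and 0.954% and 0.837% on those labelled S1pr2-/-. After flagged spots were left out, 2 of 9 and 9 of 10 spots were well above background on the WT arrays, and 7 of 10 and 8 of 9 on the arrays labelled S1pr2-/-. The spots ranged from 15.2 to 24.5 and from 20.5 to 35.7 intensity units on the WT arrays and from 18.4 to 35.3 and from 17.5 to 25.3 on the others, so that all 4 arrays overlapped. As measured, the genotype means differed by -0.02 on the log2 scale. With the floor, which 3 of the 4 arrays were under, the difference was -0.04 (standard error 0.061, 95% interval -0.22 to 0.15, adjusted p = 0.840 in limma). That interval is narrow because of the floor and does not bound a change in Il10 mRNA below it.

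Il9 and Tslp stayed below the well-above-background flag on every array and were not tested. Il9 gave 0.226% and 0.181% of the 75th percentile on the WT arrays and 0.190% and 0.177% on those labelled S1pr2-/-. Tslp gave 0.277% and 0.181% on the WT arrays and 0.161% and 0.148% on those labelled S1pr2-/-. These are processed signals of 3.80 to 7.08 intensity units, against 24.9 to 28.2 units for the floor. The background-subtracted signal of Il9 was still above 97.8% to 100% of the 138 to 145 negative control spots (spots designed to bind no transcript) of each array, and that of Tslp above 92.4% to 100%. A difference between genotypes in either gene was not detectable at this signal.

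Of the 5 genes tested, 0 were called at an adjusted p under 0.05, as were 0 of all 27158 probes tested in each direction (0.0%). Lower by at least 2-fold at an unadjusted p under 0.05, the kind of rule the methods use, were 2 of the 5, Il4 and Il13, against 0.633% of all probes tested. Il13 passed the background filter only through its WT arrays and lies at the floor on the others, so its place in this count is a description. The study listed both genes from these same arrays, and of the other 3 tested, 0 were lower by unadjusted p, with a median log2 difference of -0.04. None of the 5 was higher by this rule, against 0.107% of all probes. The values of the genotypes did not overlap and were lower on the arrays labelled S1pr2-/- for 3 of the 5, Il4, Il13 and Il5, against 21.7% of all probes tested. Ordered from the lowest log2 difference, Il4 was number 18, Il13 number 32 and Il5 number 745 of the 27158 probes. The median difference of all probes tested was -0.003. Without S1pr2-/- replicate 1 or without S1pr2-/- replicate 2, the 2-fold rule took only 1 of the 5, Il4, because the unadjusted p of Il13 was then 0.108. The precision is set by having 2 arrays per genotype, with which an exact permutation test, two-sided, cannot go below 0.333.

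Because Il4, Il13 and Il5 lie in 1 cluster, the stretch from Leap2 to Acsl6 was read gene by gene. RefSeq orders it as Leap2, Uqcrq, Gdf9, Shroom1, Sowaha, Septin8, Kif3a, Il4, Il13, Rad50, Il5, Irf1, Slc22a5, Slc22a21, Slc22a4, Pdlim4, P4ha2, Csf2, Il3 and Acsl6, which makes 20 protein-coding genes, of which 18 were tested. The 14 tested genes that are not cytokines of the list had log2 differences between -0.45 and 0.50 with a median of -0.06. Rad50, a DNA repair gene whose 3′ end holds the locus control region of the type 2 cytokines, differed by 0.07 (standard error 0.086, adjusted p = 0.789 in limma). Only Irf1, an interferon response factor, had an unadjusted p under 0.05 among these 14, with a difference of -0.45 (standard error 0.127, adjusted p = 0.515 in limma). Csf2, which encodes GM-CSF beside Il3, differed by -0.07. The genes on either side of Il4 and Il13 thus had differences far smaller than theirs, although no test of the difference between neighbours was run.

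**Figure D2:**
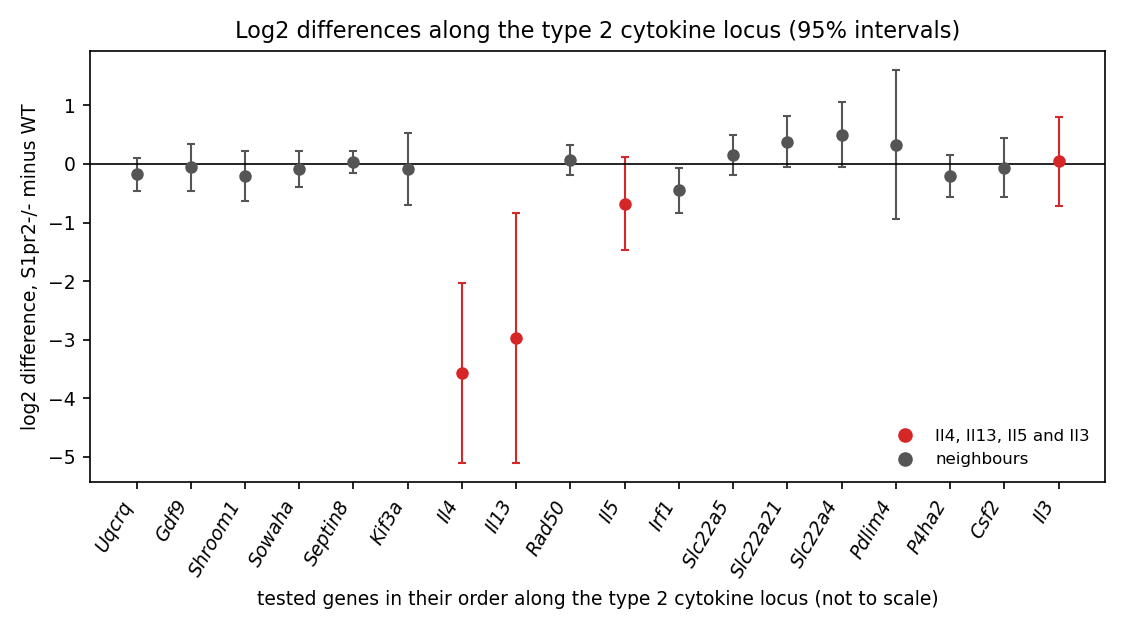
Log2 difference, S1pr2-/- minus WT, with 95% intervals from limma for the 18 tested genes in their order along the type 2 cytokine locus, spacing not to scale. Red points are Il4, Il13, Il5 and Il3 and grey points the other genes; Il4 at -3.56 and Il13 at -2.97 lie below every neighbour, whose values run from -0.45 to 0.50.

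The 250 bases before the start of Il4, Il13 and Il5 are shown because Il4 and Il13 were lower together and Il5 less so. They are RefSeq sequences of GRCm38.p6, on the gene's own strand from 5′ to 3′; the arrays were designed on another build, and no coordinate was carried between them. Capitals mark matches, on either strand, to GATAA (the letters GATA factors bind), GGAAA (the core of NFAT sites, read TTTCC on the other strand), TGANTCA (AP-1) and the STAT palindrome that STAT6 binds (TTC and GAA with 4 bases of any kind between them).

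Il4, chr11:53618666-53618915, minus strand: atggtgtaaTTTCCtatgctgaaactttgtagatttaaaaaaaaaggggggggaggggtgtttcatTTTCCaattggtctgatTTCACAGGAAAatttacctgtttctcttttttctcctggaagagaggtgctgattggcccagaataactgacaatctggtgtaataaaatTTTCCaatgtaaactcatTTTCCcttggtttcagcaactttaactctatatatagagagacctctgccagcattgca
Il13, chr11:53634703-53634952, minus strand: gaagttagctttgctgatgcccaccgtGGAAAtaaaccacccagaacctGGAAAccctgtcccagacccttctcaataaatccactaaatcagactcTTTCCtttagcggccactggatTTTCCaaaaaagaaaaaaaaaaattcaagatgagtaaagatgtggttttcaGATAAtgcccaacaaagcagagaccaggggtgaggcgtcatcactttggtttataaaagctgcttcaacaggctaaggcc
Il5, chr11:53720544-53720793, plus strand: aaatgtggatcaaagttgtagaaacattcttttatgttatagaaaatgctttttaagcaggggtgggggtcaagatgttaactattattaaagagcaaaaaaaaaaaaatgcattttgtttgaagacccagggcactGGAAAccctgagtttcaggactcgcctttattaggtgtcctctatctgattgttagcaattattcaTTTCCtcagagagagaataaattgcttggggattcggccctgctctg

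GGAAA occurred at 5 places before Il4, 4 before Il13 and 2 before Il5, and 55.6% of 32851 windows of the same length in the reference table held it at least once. The STAT palindrome occurred once among these sequences, before Il4 from -167 to -158, where it overlaps the GGAAA at -161, and 5.85% of windows held it. GATAA occurred once, before Il13 from -80 to -76, against 22.6% of windows, and TGANTCA, held by 6.75% of windows, in none. A window without GATAA can hold another form of the GATA site, so its absence before Il4 and Il5 does not set them apart from Il13. These are matches of letters in short windows and carry no information on binding.

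The receptors of these cytokines were read next. All 13 receptor chains of the listed cytokines were tested, and their median log2 difference was -0.02. Only Il5ra, the IL-5 receptor chain that marks eosinophils, was lower by the 2-fold rule, or at an unadjusted p under 0.05 (3 chains without WT replicate 1). Its signal was 0.249 and 0.678 of the 75th percentile in WT and 0.0278 and 0.0344 of it in S1pr2-/-, a log2 difference of -3.73 (standard error 0.578, adjusted p = 0.508 in limma). As for Il4 and Il13, WT replicate 2 was the highest array. Among all probes tested, 0.633% were lower by the 2-fold rule and 5.59% at an unadjusted p under 0.05. The study listed Il5ra from these same arrays, and of the other 12 chains, 0 were lower at an unadjusted p under 0.05. The chains of the IL-10 receptor, Il10ra and Il10rb, differed by 0.26 and 0.21 with unadjusted p of 0.0306 and 0.0429, and 0 chains were higher at an unadjusted p under 0.05 when any 1 of the arrays was left out, whereas 3.99% of all probes tested were higher by that rule with 4 arrays.

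The receptor chains for IL-4 and IL-13 differed little. Il4ra, the chain both cytokines share, had a log2 difference of -0.28 (standard error 0.109, 95% interval -0.61 to 0.05), and -0.23 at its other probe. Il13ra1, its partner for IL-13, differed by 0.14 (95% interval -0.21 to 0.50), and Il2rg, the common γ chain, by 0.08. Il13ra2, the decoy receptor of IL-13, was well above background on 3 arrays and differed by -0.41 with the floor. Il3ra differed by 0.01, and Csf2rb and Csf2rb2, the shared β chains of the IL-3, IL-5 and GM-CSF receptors, by -0.02 and -0.08. Il9r differed by -0.10, and the TSLP receptor chains Crlf2 and Il7r by 0.02 and -0.25. Among the 8 kinases and STATs behind these receptors, 0 had an unadjusted p under 0.05 (1 without S1pr2-/- replicate 2), and the differences ran from -0.39 for Jak2 to 0.16 for Jak3, with Tyk2 at -0.27 and Stat3 at -0.19.

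Genes that IL-4 and IL-13 induce in macrophages were lower in part. Of 15 such genes tested, 8 had a lower signal at an unadjusted p under 0.05, against 5.59% of all probes. By the 2-fold rule, 7 were lower, against 0.633% of all probes. The median log2 difference of the 15 genes was -0.80. Alox15 is also among the eosinophil markers described below, whose median was -4.50 with WT replicate 2 again the highest array for those that differed, and the part of eosinophils in these targets was not tested. Ccl24, an eosinophil-attracting chemokine, had log2 values of 1.15 and 2.78 on the WT arrays and -5.83 and -6.64, the latter at the floor, on the arrays labelled S1pr2-/-. Alox15, a lipoxygenase, had -1.81 and 0.15 against -6.42 and -4.89, and Retnla, a secreted marker of alternative activation, 2.99 and 4.51 against 0.94 and 0.34. Socs1, a feedback inhibitor of cytokine signaling, differed by -1.74 (standard error 0.392, adjusted p = 0.508 in limma). In all of these, the genotypes did not overlap and WT replicate 2 was the highest array.

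The study listed 6 of these 15 genes from these same arrays, so their direction is not independent of it. Of the other 9 genes, 2 were lower at an unadjusted p under 0.05, with a median difference of -0.47: Arg1, arginase 1, by -1.67, and Pdcd1lg2, which encodes PD-L2, by -0.80. Chil3 and Mrc1, which alveolar macrophages also express without type 2 cytokines, differed by -0.03 and -0.02; these genes lie outside the naming rule and were picked with their values in view. The count of 8 rests on all 4 arrays, as it was 1 without S1pr2-/- replicate 1, 2 without S1pr2-/- replicate 2, 7 without WT replicate 2 and 10 without WT replicate 1.

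Genes that IL-10 induces in macrophages were also measured, as Il10 itself was near background. Of 9 tested, 3 had a lower signal at an unadjusted p under 0.05 and 0 a higher one, against 5.59% and 3.99% of all probes tested. The median log2 difference of the 9 was -0.50, and it was -0.40 to -0.32 with any 1 array left out. Ddit4, an inhibitor of mTORC1, differed by -0.81 (standard error 0.058, adjusted p = 0.508 in limma), Nfil3, a transcription factor, by -0.55 and Tnfaip3, an inhibitor of NF-κB, by -0.50. Socs3, the feedback inhibitor of the STAT3 pathway, differed by -0.56 with an unadjusted p of 0.0606. None of them was 2-fold lower. Il4ra, described above as a receptor chain, is also among the 9. Of the other cytokines of the IL-10 family, Il20 was not above background by the flag on any array, Il19 was not tested, and Il22 and Il24 differed by 0.04 and -0.24.

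Of 14 tested inducers and transcription factors of type 2 cytokines, 3 had a lower signal at an unadjusted p under 0.05 and 0 a higher one. Among all probes tested, these shares were 5.59% and 3.99%. The 2-fold rule took 0 of the 14, and their median log2 difference was -0.46. Those 3 were Il33, the alarmin of epithelial cells, by -0.62, Gata3, the transcription factor of type 2 lymphocytes, by -0.81, and Il17rb, the IL-25 receptor, by -0.47. Il1rl1, the IL-33 receptor, had the largest difference, -1.68 (standard error 0.600, adjusted p = 0.534 in limma), with log2 values of 0.48 and 1.94 against -0.23 and -0.71. The study listed Il1rl1 from these same arrays, and the median difference of the other 13 genes was -0.44. Irf4 differed by -0.78 and Il2 by -0.75, with unadjusted p of 0.0510 and 0.0763. The count of 3 was 1 without S1pr2-/- replicate 2, when 3 others were higher. Il25 was not above background by the flag on any array.

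Other cytokines of lymphocytes were set beside these. Of 7 tested, 1 was lower at an unadjusted p under 0.05, Areg (amphiregulin), by -0.52; there were 3 without WT replicate 1 and 0 without S1pr2-/- replicate 2. Among all probes tested, 5.59% were lower at an unadjusted p under 0.05 with all arrays. Ifng, the type 1 cytokine, differed by -1.33 (standard error 0.566, adjusted p = 0.555 in limma). Its log2 values were -2.33 and -0.90 on the WT arrays and -3.02 and -2.87 on those labelled S1pr2-/-. The study listed Ifng from these same arrays, and the median difference of the other 6 genes was -0.41. Tnfsf11 differed by -0.80 and Il17a by -0.49, and Il21 and Il31 were not well above background on any array.

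**Figure D3:**
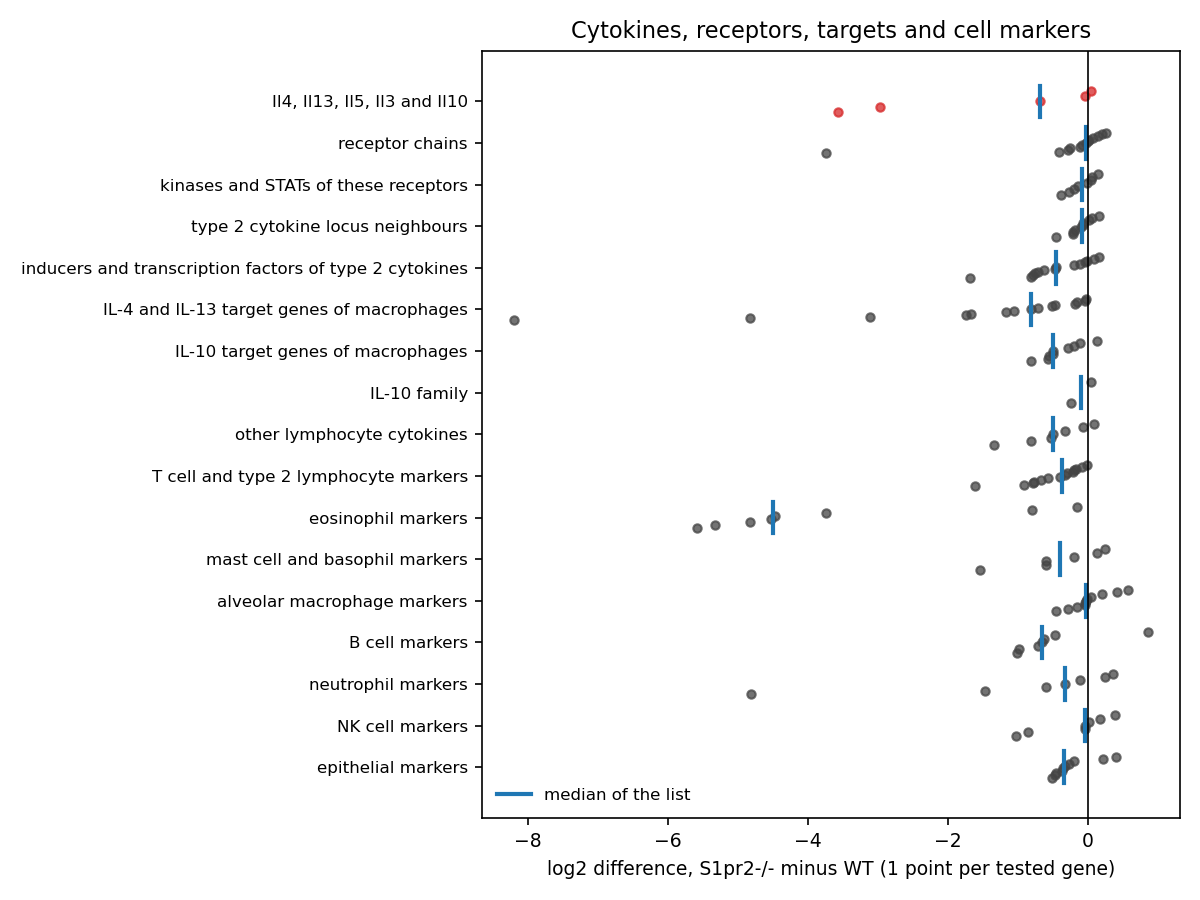
Log2 difference, S1pr2-/- minus WT, of every tested gene in each list, 1 point per gene, with the list's median as a blue bar. Red points are Il4, Il13, Il5, Il3 and Il10. The medians lie between -0.80 and -0.02 except that of the eosinophil markers at -4.50. Values below -3 occur for Il4, Il5ra, Retnlg, the IL-4 and IL-13 targets Ccl24, Alox15 and Retnla, and the eosinophil markers except Ear6 and Siglecf.

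The cells that could hold these mRNAs were read from marker genes, because the lavage was not sorted. In such bulk RNA, fewer cells of a type and less RNA per cell cannot be told apart. Of 8 tested eosinophil markers, 6 were lower by the 2-fold rule, against 0.633% of all probes tested. The median log2 difference of the 8 was -4.50. Gata1, a transcription factor of the eosinophil lineage, differed by -5.58, Prg2, the major basic protein, by -5.32, Alox15 by -4.83 and Epx, eosinophil peroxidase, by -4.52. Prg2 had log2 values of -0.07 and 1.69 on the WT arrays and -5.04 and -3.99 on those labelled S1pr2-/-. Epx was well above background on 3 arrays and at the floor on S1pr2-/- replicate 1. It passed the background filter only through its WT arrays, so its place in the count of 6 is a description. Prg3, well above background on 1 array, was not tested. Siglecf, which alveolar macrophages share, differed by -0.15 and makes up most of the list's summed signal, which was 44.5 and 54.6 times the 75th percentile on the WT arrays and 35.6 and 40.2 times on those labelled S1pr2-/-. By the unadjusted p alone, the 6 were 3 without S1pr2-/- replicate 1. The study itself listed 3 of these 8 genes. As for Il4 and Il13, the eosinophil markers that differed were higher on WT replicate 2 than on WT replicate 1, and their part in the lower Il4 and Il13 signal was not tested. This order is not particular to them. Among genes of lymphocytes, Ifng (log2 values of -2.33 and -0.90) and Gata3 (-0.85 and -0.39) had it too. Cd3g (0.13 and 0.01) and Ccr4 (-2.57 and -2.60) had the opposite order, and the share over all probes was not counted.

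T cell markers were read next. Of 14 tested T cell and type 2 lymphocyte markers, 4 had a lower signal at an unadjusted p under 0.05 and 0 a higher one. Among all probes tested, these shares were 5.59% and 3.99%. The median log2 difference of the 14 markers was -0.36. The study listed Ccr4 from these same arrays. Of the other 13 markers, 3 were lower at an unadjusted p under 0.05, with a median difference of -0.32. Ccr4, a chemokine receptor of type 2 helper T cells, differed by -1.61, Lck by -0.77, Cd5 by -0.77 and Cd6 by -0.66, while Icos, a costimulatory receptor, differed by -0.92 with an unadjusted p of 0.0828. The summed signal of the list was 24.1 and 26.7 times the 75th percentile on the WT arrays and 21.4 and 15.3 times on those labelled S1pr2-/-, so that S1pr2-/- replicate 2 was the lowest array. The count of 4 was 0 without WT replicate 2, 1 without WT replicate 1 and 9 without S1pr2-/- replicate 1. The part of T cells in the cytokine signals was not tested.

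Basophils and mast cells also make IL-4 and IL-13. Of 11 markers with a probe, 6 were well above background on all 4 arrays, whereas Mcpt8, Cma1, Fcer1a and Ms4a2 were not well above background on any array, and these include the defining basophil protease Mcpt8 and both specific chains of the high-affinity IgE receptor. Of the 6 tested, 2 were lower at an unadjusted p under 0.05, Mcpt4 by -0.59 and Hdc by -0.60, and 1 was higher, Prss34 by 0.25; 0 were lower without S1pr2-/- replicate 1 or without S1pr2-/- replicate 2. Among all probes tested with the 4 arrays, 5.59% were lower and 3.99% higher at an unadjusted p under 0.05. Cd200r3, a basophil and mast cell receptor, differed by -1.53, but its log2 value of -3.61 on WT replicate 1 was far above the -5.80 on WT replicate 2. The list's summed signal was 0.887 and 0.980 times the 75th percentile on the WT arrays and 0.744 and 0.745 times on those labelled S1pr2-/-, and the part of these cells in the cytokine signals was not tested.

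**Figure D4:**
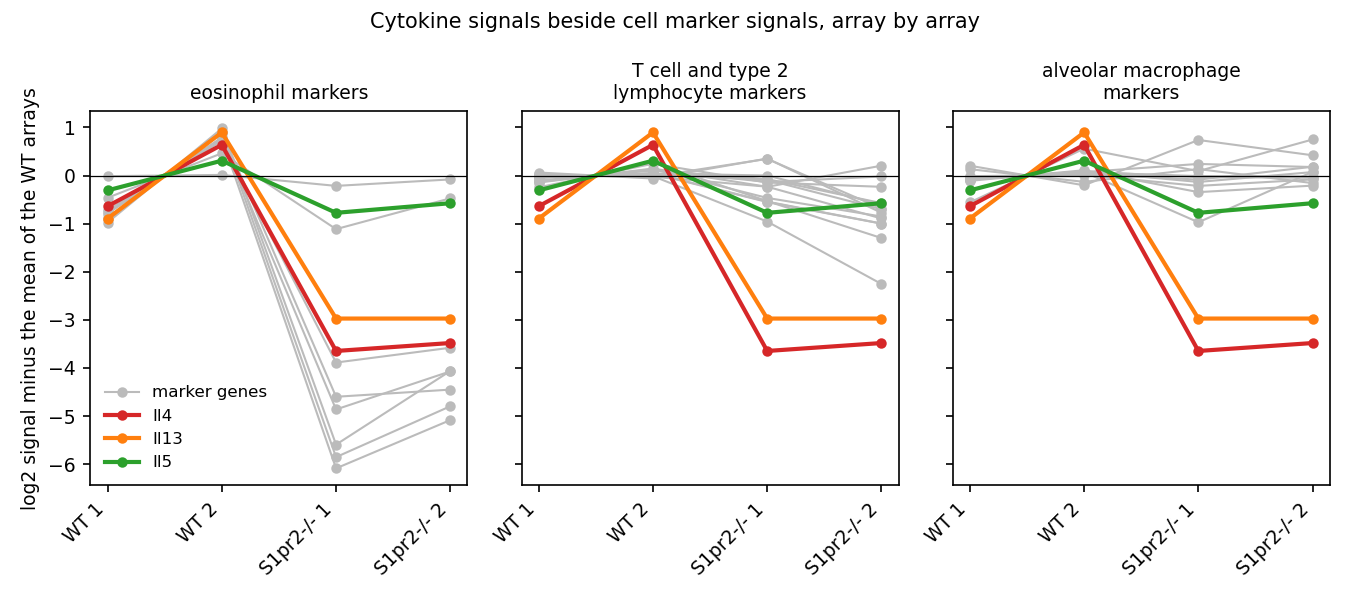
Log2 signal of Il4, Il13 and Il5 (coloured) and of eosinophil, T cell and alveolar macrophage markers (grey) on the 4 arrays, each gene relative to its mean over the 2 WT arrays; lines join the values of 1 gene. Both S1pr2-/- values of Il13 are at the floor. Il4 and Il13 run between the eosinophil markers that are lowest and the rest, and below the T cell and macrophage markers on both S1pr2-/- arrays.

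The remaining markers gave smaller counts, beside 5.59% of all probes tested lower and 3.99% higher at an unadjusted p under 0.05. At an unadjusted p under 0.05, 0 of 11 alveolar macrophage, 1 of 7 B cell, 2 of 7 neutrophil, 0 of 7 NK cell and 1 of 10 epithelial markers were lower, and 0 of each were higher, with medians of -0.02, -0.66, -0.32, -0.03 and -0.34. The B cell median was -0.08 without WT replicate 1 and -1.44 without WT replicate 2, the NK cell median -0.36 without S1pr2-/- replicate 1 and 0.39 without S1pr2-/- replicate 2, the neutrophil median -0.10 without S1pr2-/- replicate 1, and the alveolar macrophage median ran from -0.12 without WT replicate 1 to 0.07 without S1pr2-/- replicate 1. The lower ones were Fcer2a (-0.46) of B cells, Retnlg (-4.81) and Cxcr2 (-0.59) of neutrophils, and Krt18 (-0.45) of epithelium. These counts changed with single arrays: without WT replicate 2, 4 B cell markers and 1 neutrophil marker were lower, without S1pr2-/- replicate 1, 0 epithelial markers were (2 without any other single array), without WT replicate 1, 1 NK cell marker was, and without S1pr2-/- replicate 2, 1 alveolar macrophage marker was. Of the epithelial markers, which bear on Tslp and Il33, Cdh1 differed by -0.50 and Sftpb by -0.46. Cdh1 is also among the IL-4 and IL-13 targets of macrophages described above. The difference was below 0 for 6 of 7 B cell, 5 of 7 neutrophil and 8 of 10 epithelial markers. Above 0 were Pax5 (0.86) of B cells, Ltf (0.36) and S100a8 (0.25) of neutrophils, and Foxj1 (0.41) and Scgb1a1 (0.22) of epithelium. Retnlg lay far below the other neutrophil markers, of which S100a9 was the lowest at -1.46.

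The genes whose profile over the 4 arrays was most like that of a cytokine were listed for the 3 cytokines that were well above background on all of them. Likeness was the root mean square distance between log2 profiles, each centred on its own mean, over 14782 genes. For Il4, the nearest were Inpp5j at 0.112, Il5ra at 0.115, Tuba8 at 0.220, Cd34 at 0.222 and Rflnb at 0.237. For Il5 they were Stk26, Cyp4f18, Qprt, Ereg and Hsd17b13, at 0.0215 to 0.0526, and for Il3 Cul9, Pak6, Tifa, Pex10 and Alpk1, at 0.0302 to 0.0489. With 4 points per gene many profiles lie close together, and for Il5 and Il3, whose own range is small, a small distance sets few genes apart.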

How the data were processed

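BALF cells of bleomycin-treated WT and S1pr2-/- mice, 2 RNA samples per genotype that the methods call independent (whether from single mice or pools is not given in the sources used here), were measured on 4 arrays of 1 slide and 1 scan, so no batch could be tested. The authors deposited spot intensity values from Agilent Feature Extraction (10.7.3.1 per the labels, 11.0.1.1 per the file headers), background-corrected in the processed signal, and a table of their log2 values, used as an alternative. Outlier-flagged spots (115 to 273 per array) were left out and spots of a probe averaged; 0 spots were saturated. The signal was scaled to the 75th percentile of the array, floored at 0.01 and log2-transformed. The test took probes with a value on every array and the well-above-background flag on both arrays of a genotype (27158 of 39429), using limma 3.58.1 in R 4.3.3 and Benjamini-Hochberg adjustment over all of them. RefSeq accessions named 69.5% of probes. Per gene, list counts use the probe of highest mean signal. Named are all 7 genes, all receptor chains, up to 4 tested genes per list with the largest absolute difference, and the 5 nearest profiles of each cytokine measured on all arrays. Genes outside this rule were named too. Among them are some with an unadjusted p under 0.05, which were picked with their values in view. The genes and lists were chosen with earlier results of these data known. The p-values measure the spread between these samples. The scripts were tested on simulated data. Alternatives were quantile normalization, the percentile over detected probes, normexp (fitted to the median spot signal), no floor, the authors' table, no filter, a trended variance, flagged spots kept, a replicate block, the methods' t-test and each array left out.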

Additional observations from a re-analysis of the deposited data

How the results depend on the processing

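Over 15 alternatives, Il4 stayed lower on the arrays labelled S1pr2-/- (log2 difference -4.20 to -2.93, adjusted p 0.348 to 0.681 in limma or the methods' t-test), as did Il13 (-4.18 to -1.62, adjusted p 0.398 to 0.681) and Il5 (-0.98 to -0.37, adjusted p 0.525 to 0.808). Il10 lay between -0.07 and 0. The floor narrows this range, which does not bound a change in Il10 mRNA below the floor. Il3 changed sign with normexp (-0.0429), and leaving out each array gave -0.20 to 0.29. The count of these genes lower by at least 2-fold at an unadjusted p under 0.05 was 2, falling to 1 with no filter, with the methods' t-test and when the percentile was taken over detected probes; leaving out each array gave 1 to 2, and Il13 was the gene lost. No gene of the list was called at an adjusted p under 0.05 or was higher by the 2-fold rule under any alternative. Over all probes, 172 were lower and 29 higher by the 2-fold rule; these counts were 57 and 15 with the methods' t-test, 79 and 15 when detected probes set the percentile, 95 and 25 with no filter, 234 and 77 with no floor, and 233 and 78 with the authors' table, and normexp called 2 probes at an adjusted p under 0.05. Leaving out an array gave 85 to 343 lower and 34 to 105 higher. The cause of these changes was not tested. Removing both the floor and the filter, an alternative chosen after seeing the data, gave 350 lower and 211 higher. The replicate numbers pair nothing in the labels. Across the 27158 probes tested, the deviations of the replicate 1 arrays from their genotype means correlated at 0.187 between WT and S1pr2-/-. With the number as a replicate block, Il4 differed by -3.56 (adjusted p 0.530 in limma), with 151 probes lower and 34 higher. No call of a listed gene by adjusted p or by the 2-fold rule changed with the block. The unadjusted p of Il5 in limma, 0.0730, was 0.0338 with the block, 0.0449 with normexp and 0.0164 without WT replicate 1. With an array left out, its genotype has 1 array, taken to be as variable as the other genotype. Signal limits Il13 on the arrays labelled S1pr2-/-, Il10, Il9 and Tslp.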
